A study of Mus musculus with 12 samples.

Results

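Gpx4, the gene of phospholipid hydroperoxide glutathione peroxidase, is 1 of 23 selenoprotein genes with values in the liver of FVB/N mice, and it was chosen by its name and read in all 12 libraries. The libraries are of ribosome footprints, which mark the stretches of mRNA held by ribosomes, and of total mRNA. Mice were wild type (WT) or carried the transgene TrspA37G, which adds 20 copies of a mutant gene for the selenocysteine (Sec) tRNA. Each genotype was fed 0, 0.1 or 2.0 ppm selenium for 6 weeks, and all mice had the FVB/N background. Each combination of genotype, diet and kind of RNA is 1 library, so there is no replicate of any group. The number of mice behind each library was not given in the sources used here. An age of 3 weeks stands in the labels, but it is shorter than the time on the diets and may not be the age at which livers were taken. The expression of the transgene itself was not analysed here. The liver label was not checked against general liver markers, because the values cover selenoproteins.

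GPX4 reduces hydroperoxides of lipids within membranes and so protects cells from death driven by lipid peroxidation. Its active site holds Sec, which is inserted at an in-frame UGA codon when the Sec tRNA, its elongation factor and a stem-loop in the 3' untranslated region of the mRNA act together. Without this machinery UGA ends translation, so footprints that lie 3' of the UGA come from ribosomes that passed it. Selenoproteins are known to differ in how far they are kept when selenium is scarce, and Gpx4 is usually counted among the housekeeping members that are kept, whereas Gpx1 is counted among the stress-related members that are lost first. The base change in TrspA37G removes a modification beside the anticodon, and the mutant tRNA is known to serve stress-related selenoproteins poorly.

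The UGA of Gpx4 is codon 73 of 197 in the annotated coding sequence (CDS) of transcript ENSMUST00000105372.7 on the forward strand of chromosome 10 (GENCODE M21, build GRCm38). The transcript spans chr10:80053488-80056439, and the UGA lies at chr10:80054737-80054739 in exon 3 of 7. The files themselves use build mm9 and give no coordinates. The following stretches of the 4 glutathione peroxidase genes in the tables are printed 5' to 3' from that annotation, with the Sec codon (TGA in DNA letters) in capitals and 10 codons on either side, because they show the site where footprints were divided into those before and those after the UGA.
Gpx4: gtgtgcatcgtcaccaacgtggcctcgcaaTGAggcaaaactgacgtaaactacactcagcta
Gpx1: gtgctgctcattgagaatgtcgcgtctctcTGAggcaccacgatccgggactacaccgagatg
Gpx2: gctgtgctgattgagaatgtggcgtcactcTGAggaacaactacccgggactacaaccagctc
Gpx3: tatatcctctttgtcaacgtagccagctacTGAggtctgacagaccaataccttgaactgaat
In all 4 genes the base after the UGA is G. Gpx1 lies on chromosome 9, Gpx2 on the reverse strand of chromosome 12 and Gpx3 on chromosome 11.

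Footprints and mRNA reads were given for the CDS window, which leaves out the codons at either end of the CDS, for a 5' window before the UGA and for a 3' window after it. For Gpx4 the values come out as whole reads when the CDS window is 534 nt, the 5' window 156 nt and the 3' window 360 nt, which leaves 18 nt between the 5' and the 3' window. These lengths place the 5' window at codons 16 to 67 and the 3' window at codons 74 to 193, with the 6 codons that end in the UGA between them. This placement was inferred from the lengths and was not tested. The next run shows the 5' window from its first base, the stretch between the windows in capitals, ending in the UGA, and the first 20 codons of the 3' window.
Gpx4 codons 16 to 93: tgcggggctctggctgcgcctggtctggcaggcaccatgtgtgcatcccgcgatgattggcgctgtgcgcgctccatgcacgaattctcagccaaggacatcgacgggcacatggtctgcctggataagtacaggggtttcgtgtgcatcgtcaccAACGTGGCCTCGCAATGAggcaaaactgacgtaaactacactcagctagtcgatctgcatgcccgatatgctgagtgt
Gpx4 is known to have a mitochondrial form that starts at the first AUG and a cytosolic form that starts at a later one. The second in-frame ATG of the annotated CDS is codon 28, so 12 codons of the 5' window belong to the mitochondrial form only and the other codons of the window to both. Reads of this gene also share sequence with its pseudogenes. Of the 129 words of 28 nt in the 5' window, all 129 occur in the transcribed pseudogene Gpx4-ps2, and of the 333 words in the 3' window, 305 do. Reads from Gpx4 and from this copy cannot be told apart in these words, and the treatment of such reads was not given in the sources used here.

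Gpx4 mRNA differed by no more than 1.33-fold between any of the 6 livers. The values are in RPKM, reads scaled to transcript length and library size, and every interval given here is a 95% interval for counting error only. At 0, 0.1 and 2.0 ppm selenium, Gpx4 mRNA measured 161 (155 to 167), 126 (120 to 132) and 126 (119 to 132) RPKM in WT. It measured 145 (138 to 152), 130 (123 to 137) and 167 (160 to 174) RPKM in TrspA37G. The highest were TrspA37G at 2.0 ppm and WT at 0 ppm, whose intervals overlap. Of the 19 genes with enough reads in all 6 mRNA libraries, Gpx4 had the second narrowest range after Txnrd1, a cytosolic thioredoxin reductase, with 1.29-fold. Gpx1, the abundant cytosolic glutathione peroxidase, had the widest with 6.94-fold. In bulk liver, fewer cells that express a gene and less RNA per cell cannot be told apart.

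The density of Gpx4 footprints over the CDS varied more than its mRNA. In RPFKM, the same unit counted over footprints, it was 177 (170 to 185), 191 (185 to 198) and 212 (203 to 222) at 0, 0.1 and 2.0 ppm in WT. In TrspA37G it was 124 (118 to 129), 200 (193 to 207) and 265 (256 to 274). The TrspA37G liver without selenium stood lowest and the TrspA37G liver at 2.0 ppm highest, while the 3 WT values and the TrspA37G value at 0.1 ppm lay between them. The range of 2.14-fold was the second narrowest of 16 genes, after Sels, a membrane protein of the endoplasmic reticulum, with 1.48-fold. Gpx1 footprints ranged over 15.9-fold.

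**Figure D1:**
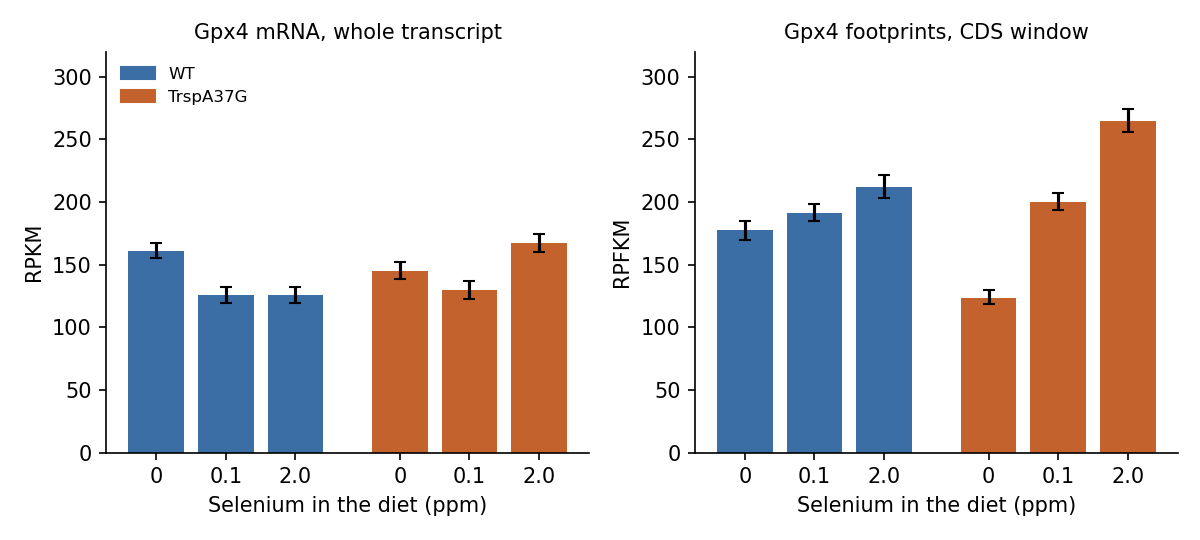
Gpx4 mRNA over the whole transcript (left, RPKM) and Gpx4 footprints over the CDS window (right, RPFKM) in each of the 6 livers, by dietary selenium. Bars are 1 library each and lines are 95% counting intervals. The mRNA stays between 126 and 167 RPKM, whereas footprints go from 124 RPFKM in TrspA37G without selenium to 265 at 2.0 ppm.

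Among the 23 selenoproteins Gpx4 ranked 5th to 7th in mRNA and 3rd to 6th in CDS footprints per length. In the WT liver at 0.1 ppm, the mRNA next above it was Sep15, a resident protein of the endoplasmic reticulum, with 155 RPKM. Next below was Dio1, a deiodinase of thyroid hormones, with 76.8 RPKM. The footprint density next above was that of Sepx1, a methionine sulfoxide reductase, with 742 RPFKM, and next below that of Sep15 with 158 RPFKM. In TrspA37G at 0.1 ppm, Sep15 mRNA at 131 RPKM lay within the interval of Gpx4, and in WT at 2.0 ppm the Sep15 footprint density of 218 RPFKM did so too, so these neighbours do not differ beyond counting error there. Gpx4 made up 6.06%, 3.00% and 2.47% of the CDS footprints of all 23 selenoproteins in WT at 0, 0.1 and 2.0 ppm. In TrspA37G its share was 7.88%, 8.18% and 9.86%. This share moves with the footprints of the other genes, Gpx1 foremost. Without selenium it was higher in TrspA37G while the density of Gpx4 itself was lower, at 124 against 177 RPFKM.

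Within the CDS, the window 5' of the UGA held most of the footprints. Its density at 0, 0.1 and 2.0 ppm was 506 (483 to 529), 456 (437 to 476) and 529 (502 to 557) RPFKM in WT and 372 (355 to 391), 505 (485 to 526) and 652 (625 to 680) RPFKM in TrspA37G. These 52 codons, 29.2% of the window's length, took 83.4%, 69.6% and 72.9% of Gpx4 CDS footprints in WT and 88.0%, 73.7% and 71.9% in TrspA37G. For mRNA the same codons took between 42.7% and 47.6% of the reads in the 6 livers, so the mRNA reads were also denser in this window, but less so than the footprints.

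Footprints 3' of the UGA, those of ribosomes that passed the Sec codon, were scarce in both livers on 0 ppm, called without selenium from here on. The density was 38.6 (34.6 to 43.0), 81.5 (76.2 to 87.0) and 80.4 (73.6 to 87.6) RPFKM at 0, 0.1 and 2.0 ppm in WT. In TrspA37G it was 20.1 (17.5 to 23.0), 71.9 (66.9 to 77.2) and 97.7 (91.0 to 105) RPFKM. These values rest on 333, 889 and 514 reads in WT and 209, 772 and 779 reads in TrspA37G. The livers at 0 ppm lie apart from the other 4 in both genotypes, and TrspA37G without selenium is the lowest of all. The mRNA over the same window was 135, 107 and 104 RPKM in WT and 118, 103 and 133 RPKM in TrspA37G, so in neither genotype was the 0 ppm liver the lowest in mRNA.

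**Figure D2:**
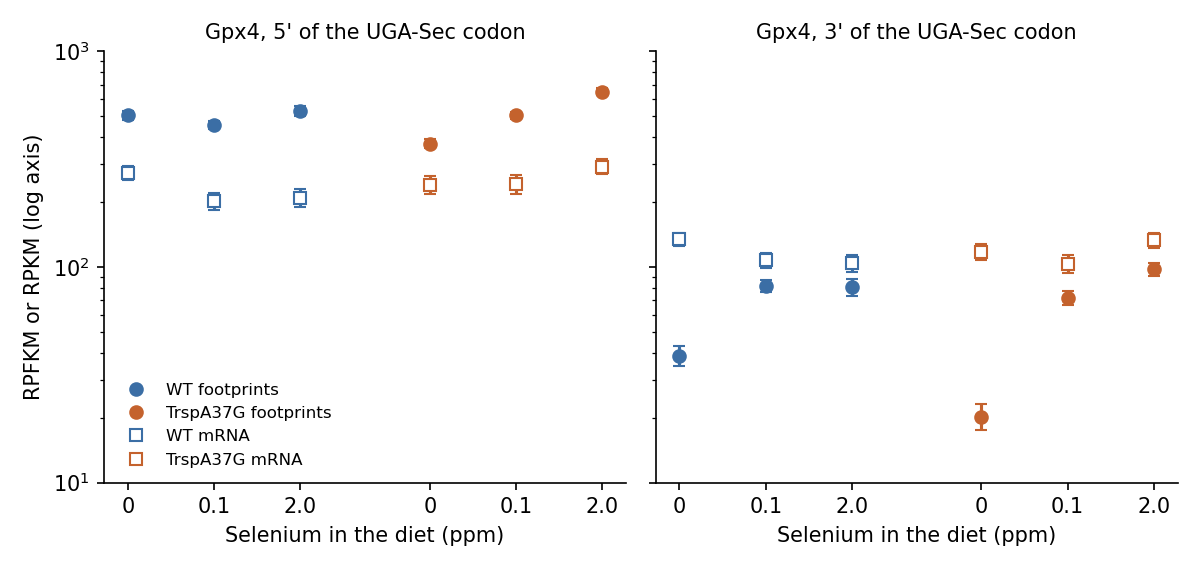
Density of Gpx4 footprints (filled circles, RPFKM) and mRNA (open squares, RPKM) 5' (left) and 3' (right) of the UGA-Sec codon, on a log axis, by dietary selenium. Points are 1 library each and lines are 95% counting intervals. In the 3' window the footprints at 0 ppm drop to 38.6 RPFKM in WT and 20.1 in TrspA37G while mRNA stays between 103 and 135 RPKM.

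The density of footprints 3' of the UGA as a percentage of the density 5' of it, here called readthrough, compares ribosomes after and before the Sec codon within 1 library and so does not depend on how libraries are scaled. For Gpx4 it was 7.64% (6.78 to 8.59) at 0 ppm, 17.9% (16.5 to 19.3) at 0.1 ppm and 15.2% (13.7 to 16.8) at 2.0 ppm in WT. In TrspA37G it was 5.40% (4.65 to 6.24), 14.2% (13.1 to 15.5) and 14.99% (13.8 to 16.3). Both livers at 0 ppm lie below all 4 others, with no overlap of intervals, and the 4 fed selenium span only 14.2% to 17.9%. The same ratio taken on mRNA reads was 49.4%, 53.3% and 49.7% in WT and 49.0%, 42.7% and 45.5% in TrspA37G, so mRNA reads were also fewer per length after the UGA. Divided by that mRNA ratio, readthrough was 15.5% (13.2 to 18.0), 33.5% (28.9 to 38.8) and 30.5% (25.9 to 36.1) in WT and 11.02% (9.11 to 13.3), 33.4% (28.4 to 39.2) and 32.9% (28.7 to 37.8) in TrspA37G.

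Gpx4 had the lowest readthrough in 5 of the 6 footprint libraries, out of 9 or 10 genes. Those genes had at least 10 reads in each window of the library, and their readthrough was not divided by the mRNA ratio. The exception was WT without selenium, where Gpx4 was 8 of 9 from the top and Sepx1 had 6.00%. Medians over these genes were 19.7%, 37.8% and 48.3% in WT and 18.2%, 36.9% and 36.2% in TrspA37G. Gpx1 had 19.7%, 94.0% and 47.7% in WT and 16.4%, 38.5% and 36.2% in TrspA37G. The ratio sets the densities of short windows against each other and is not the yield of full-length protein.

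**Figure D3:**
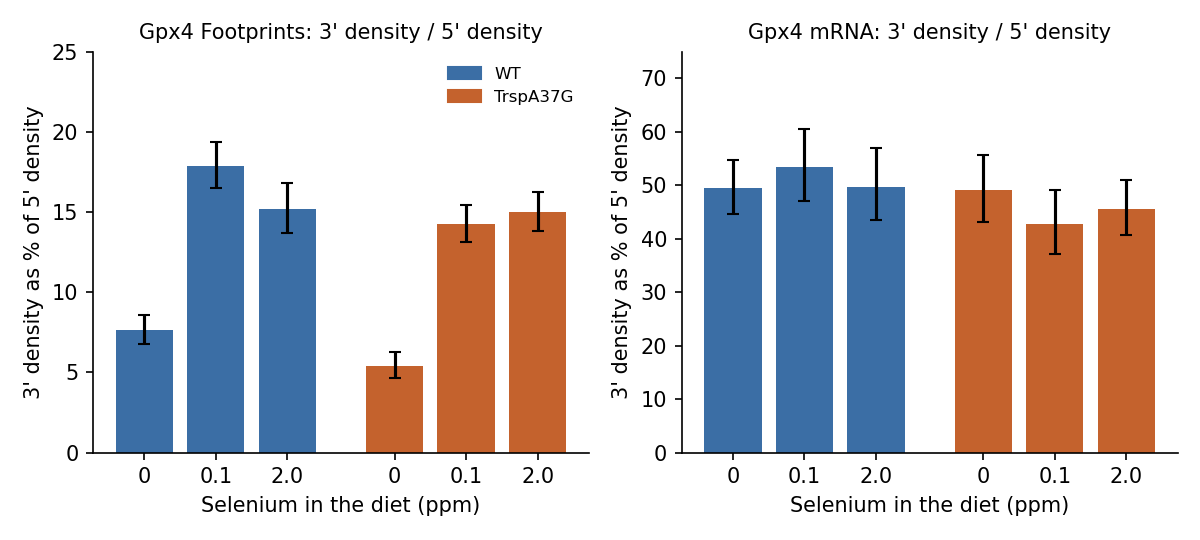
Gpx4 density 3' of the UGA-Sec codon as a percentage of the density 5' of it, for footprints (left) and mRNA (right), by dietary selenium. Bars are 1 library each and lines are 95% counting intervals. Footprints give 7.64% and 5.40% at 0 ppm against 14.2% to 17.9% in the livers fed selenium, while mRNA stays between 42.7% and 53.3%.

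The 18 nt between the windows, which end with the UGA, held fewer Gpx4 footprints than their length would give in 5 of the 6 livers. They make up 3.37% of the CDS window and held 44, 53 and 32 footprints in WT at 0, 0.1 and 2.0 ppm, which is 1.94% (1.41 to 2.60), 1.71% (1.28 to 2.23) and 1.59% (1.09 to 2.24) of the CDS footprints (exact Clopper-Pearson intervals). In TrspA37G they held 20, 66 and 99, or 1.05% (0.642 to 1.62), 2.07% (1.61 to 2.63) and 3.16% (2.58 to 3.84). In TrspA37G at 2.0 ppm the interval includes the share of the length, and in the other 5 livers it lies below. The share of the length supposes an even spread over the CDS window, whereas footprints were denser in the 5' than in the 3' window in every liver. For mRNA the same stretch held 4.30% to 6.34% of the reads in the 6 livers. The rule that assigns a footprint to a position was not given in the sources used here, so this stretch need not be the one covered by a ribosome waiting at the UGA.

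Translational efficiency, which sets the footprint density over the CDS against the mRNA level of the whole transcript as a ratio, was 1.10 (1.04 to 1.16), 1.52 (1.44 to 1.62) and 1.69 (1.58 to 1.80) for Gpx4 in WT. In TrspA37G it was 0.853 (0.799 to 0.911), 1.54 (1.45 to 1.65) and 1.58 (1.499 to 1.68). The 2 livers without selenium were again the lowest, TrspA37G below WT, and the 4 others lay close together. Computed within the 5' window, the efficiency was 1.85, 2.26 and 2.52 in WT and 1.55, 2.08 and 2.23 in TrspA37G. Within the 3' window it was 0.287, 0.759 and 0.770 in WT and 0.171, 0.696 and 0.734 in TrspA37G. The span between the livers was thus wider after the UGA than before it.

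Selenium deprivation, 0 against 0.1 ppm, gave the log2 ratios of Gpx4 farthest from 0 among the 7 comparisons for 3' footprints and readthrough, but not for mRNA or 5' footprints. A gene is called higher or lower here when 2 libraries differ at least 1.5-fold and the counting interval excludes 1, which says nothing of variation between mice. In WT, Gpx4 footprints 3' of the UGA were 2.11-fold lower (1.86 to 2.40) without selenium, a log2 ratio of -1.08, and 76.9% of the 13 genes with enough reads were called lower in that comparison. In TrspA37G they were 3.58-fold lower (3.07 to 4.19), a log2 ratio of -1.84 that became -0.75 when CDS footprints were scaled to the median selenoprotein, and 81.8% of 11 genes were called lower on the deposited scale. Most selenoproteins were lower 3' of the UGA, with median log2 ratios of -1.09 and -2.06, so Gpx4 lay near the middle of its class in this measure.

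Readthrough of Gpx4 was 2.34-fold lower (2.03 to 2.69) without selenium in WT and 2.64-fold lower (2.24 to 3.11) in TrspA37G. Of the genes with enough reads, 66.7% of 12 were called lower in WT and 70% of 10 in TrspA37G, and the median log2 ratios of -1.18 and -1.32 lie close to the -1.23 and -1.40 of Gpx4. The 3' to 5' ratio of the mRNA reads had log2 ratios of -0.11 (-0.34 to 0.12) and 0.20 (-0.08 to 0.47), with intervals that include 0. The difference between the genotypes in this response was -0.17 on the log2 scale, with an interval from -0.49 to 0.14 that includes 0 and reaches a 1.40-fold stronger response in TrspA37G.

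Before the UGA, the 5' footprints of Gpx4 had a log2 ratio of 0.15 (0.06 to 0.24) in WT and -0.44 (-0.53 to -0.35) in TrspA37G, neither past 1.5-fold. With CDS footprints scaled to the median selenoprotein these became 0.88 and 0.64, both past it, and the second turned. That median includes footprints 3' of the UGA. Set against the median of 5' footprints themselves, they became 0.40 and 0.20, neither past it. Over the whole CDS, the log2 ratio was -0.11 (-0.19 to -0.03) in WT, and in TrspA37G footprints were 1.62-fold lower (1.53 to 1.71), in a comparison where 70% of 20 genes were called lower. Translational efficiency was not past the threshold in WT, with a log2 ratio of -0.47 (-0.59 to -0.35), and 1.81-fold lower (1.65 to 1.98) in TrspA37G, where 35% of 20 genes were called lower. The difference between the genotypes in the response to deprivation was -0.58 (-0.70 to -0.47) on the log2 scale for CDS footprints and -0.38 (-0.56 to -0.21) for efficiency, beyond counting error in both. With each scaled to the median selenoprotein of its own measure, the first became -0.23 (-0.35 to -0.12) and the second -0.59 (-0.76 to -0.41).

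Gpx4 mRNA had positive log2 ratios without selenium, 0.36 (0.27 to 0.45) in WT and 0.16 (0.06 to 0.27) in TrspA37G, although below 1.5-fold. These were the second highest and the highest of 20 genes, whose medians were -0.24 and -0.44. Relative to these medians the ratios become 0.59 and 0.60, both past 1.5-fold. The same scaling turns the CDS footprint ratios from -0.11 and -0.69 to 0.62 and 0.39, because the median selenoprotein held 0.73 and 1.08 log2 units fewer CDS footprints. With the CDS footprint median as the scale, Gpx4 3' footprints in WT stood at -0.34, no longer past 1.5-fold. Against the median of 3' footprints themselves, the ratios were 0.01 in WT and 0.22 in TrspA37G. Efficiency in TrspA37G, scaled to its own median, stood at -0.55, also no longer past 1.5-fold. This scaling takes the listed selenoproteins as the reference, not the other mRNAs of the liver, and only ratios within a library, such as readthrough, are free of the choice.

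**Figure D4:**
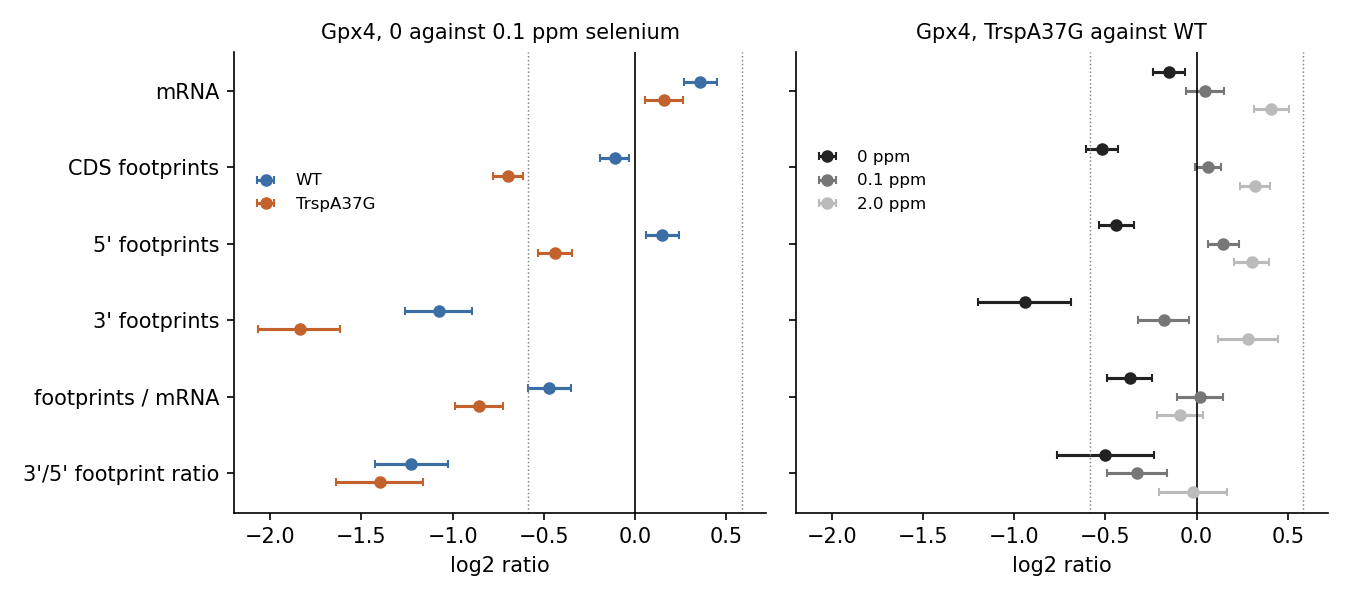
Log2 ratios of Gpx4 for 0 against 0.1 ppm selenium in each genotype (left) and for TrspA37G against WT in each diet (right). Points compare 1 library with 1 other (efficiency uses 4), lines are 95% counting intervals, and dotted lines mark 1.5-fold. On the left, 3' footprints and readthrough lie beyond the dotted line in both genotypes, and on the right 3' footprints at 0 ppm do, at -0.94.

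Going from 0.1 to 2.0 ppm selenium left no measure of Gpx4 past 1.5-fold. In WT the log2 ratios were 0.00 for mRNA, 0.15 for CDS footprints, 0.21 for 5' footprints, -0.02 for 3' footprints, 0.15 for efficiency and -0.23 for readthrough. In TrspA37G they were 0.37, 0.40, 0.37, 0.44, 0.04 and 0.07 in the same order. The TrspA37G liver at 2.0 ppm thus had more Gpx4 mRNA and more footprints in every window than the one at 0.1 ppm, while its efficiency and readthrough had intervals that include 0. In WT the readthrough interval, -0.42 to -0.05, excludes 0, but divided by the mRNA ratio of the windows it became -0.13 (-0.45 to 0.19). The difference between the genotypes in this readthrough response, not divided by the mRNA ratio, was 0.31 (0.06 to 0.55).

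The comparison of TrspA37G with WT asks how the mutant tRNA bears on Gpx4 at each level of selenium. Without selenium, 3' footprints were 1.92-fold lower in TrspA37G (1.61 to 2.29), and 72.7% of 11 genes were called lower in that comparison. With CDS footprints scaled to the median selenoprotein, that log2 ratio became 0.023, and against the median of 3' footprints themselves it became 0.44. On the deposited scale, the log2 ratios of 3' footprints at 0.1 and 2.0 ppm were -0.18 (-0.32 to -0.04) and 0.28 (0.12 to 0.45). Over the CDS they were -0.52 (-0.61 to -0.43), 0.06 (-0.01 to 0.14) and 0.32 (0.24 to 0.40) at 0, 0.1 and 2.0 ppm, and for mRNA -0.15, 0.05 and 0.41, none of them past 1.5-fold. On the deposited scale Gpx4 footprints over the CDS thus lay lower in TrspA37G without selenium and higher at 2.0 ppm, and the first of these turns when libraries are scaled to the median selenoprotein.

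Over all 20 genes with enough reads, Gpx4 included, the median log2 ratios of TrspA37G against WT were -0.96, -0.48 and -0.67 for CDS footprints and -0.55, -0.23 and -0.43 for mRNA. Relative to these medians Gpx4 lay higher in TrspA37G in each diet, by 0.45, 0.54 and 0.98 for CDS footprints and by 0.40, 0.28 and 0.84 for mRNA. Of the 20 genes, Gpx4 had the highest mRNA ratio and the second highest CDS footprint ratio at 2.0 ppm. Its readthrough, which no scaling touches, had log2 ratios of -0.50 (-0.77 to -0.23), -0.33 (-0.49 to -0.16) and -0.02 (-0.21 to 0.17), all below 1.5-fold. Divided by the mRNA ratio of the windows, the value at 0.1 ppm became -0.0059 (-0.32 to 0.31).

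A fit of genotype and diet together across all genes was possible over the 6 livers, with the departure from additive effects as the error and 2 residual degrees of freedom. limma shares variance across genes, which raised the degrees of freedom behind the Gpx4 readthrough test to 9.03. With limma and Benjamini-Hochberg adjustment over 10 genes, Gpx4 readthrough was lower at 0 than at 0.1 ppm by a log2 effect of -1.31 (SE 0.39, adjusted p = 0.0166), with both genotypes in this direction, and 6 of the 10 genes passed. Efficiency had an effect of -0.66 with an adjusted p of 0.0848 over 20 genes in limma. For CDS footprints limma gave -0.40 (adjusted p = 0.298) and for mRNA 0.26 (adjusted p = 0.482). The genotype effects in limma were 0.10 for mRNA (adjusted p = 0.727), -0.05 for CDS footprints (0.897), -0.15 for efficiency (0.498) and -0.28 for readthrough (0.444). For 2.0 against 0.1 ppm the adjusted p-values were 0.80 or higher. Of these 12 effects on Gpx4, the one that passed is that of selenium deprivation on readthrough, and leaving out both livers at 2.0 ppm moved its adjusted p to 0.0519.

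Among the other glutathione peroxidases listed, only Gpx1 had many reads. Its mRNA was 893, 2327 and 2437 RPKM in WT and 351, 1125 and 1185 RPKM in TrspA37G at 0, 0.1 and 2.0 ppm. Its CDS footprints were 957, 2863 and 4501 RPFKM in WT and 283, 461 and 506 RPFKM in TrspA37G. Unlike Gpx4 mRNA, Gpx1 mRNA was called lower without selenium in both genotypes, with log2 ratios of -1.38 and -1.68. Footprints of Gpx1 3' of the UGA had log2 ratios of -3.65 in WT and -2.29 in TrspA37G, beside the -1.08 and -1.84 of Gpx4. Readthrough of Gpx1 had -2.26 (-2.42 to -2.09) and -1.23 (-1.55 to -0.91), beside -1.23 (-1.43 to -1.02) and -1.40 (-1.64 to -1.16) for Gpx4, so the intervals stand apart in WT and overlap in TrspA37G.

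Gpx3, the glutathione peroxidase secreted into plasma, had 1.59 to 4.20 RPKM of mRNA and 3 to 36 CDS footprint reads in the 6 livers. Its readthrough ratios rest on so few reads that their intervals include 0 in both genotypes. Gpx2, the gastrointestinal form, had at most 4 mRNA reads in a library and entered no comparison. Of the 3 glutathione peroxidases with enough reads, 1 was called lower in mRNA without selenium in each genotype, namely Gpx1, beside 4 of all 20 genes in WT and 6 of 20 in TrspA37G. For CDS footprints 1 of 3 was called lower in WT and 3 of 3 in TrspA37G, beside 11 and 14 of 20 genes, with medians of -0.11 and -0.70 beside -0.73 and -1.08 over all 20 genes.

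**Figure D5:**
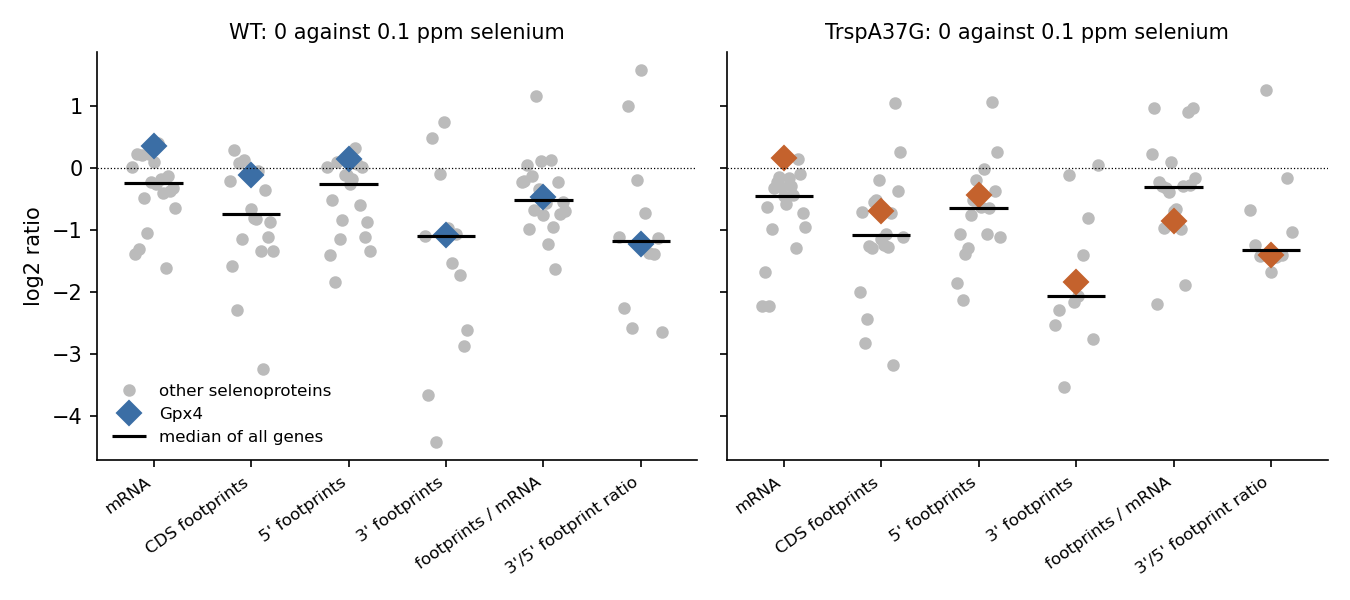
Log2 ratios for 0 against 0.1 ppm selenium of Gpx4 (diamonds) and of the other selenoproteins with enough reads (grey points), by measure, in WT (left) and TrspA37G (right). Black lines are medians of all genes. Gpx4 lies above the median in mRNA, at 0.36 and 0.16, and close to it in readthrough, at -1.23 and -1.40.

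The group that Gpx4 is counted in, the housekeeping selenoproteins, holds Gpx4, the thioredoxin reductases Txnrd1 and Txnrd2, and Sep15. Without selenium, 0 of its 4 members were called lower in mRNA in WT and 1 in TrspA37G, which was Txnrd2, beside 4 and 6 of all 20 genes, with medians of -0.29 and -0.34. For CDS footprints 3 of 4 were called lower in WT, all but Gpx4, and 2 of 4 in TrspA37G, which were Gpx4 and Sep15, beside 11 and 14 of all 20 genes, with medians of -0.84 and -0.53. On the deposited scale, Gpx4 was thus the only member outside the calls in WT and, with Sep15, inside them in TrspA37G. With CDS footprints scaled to the median selenoprotein, its ratios became 0.62 in WT and 0.39 in TrspA37G.

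The stress-related list holds Gpx1, Gpx3, Sepx1, Selt, Sepw1 and Selh. Of its 6 members, 3 were called lower in mRNA in WT and 2 in TrspA37G, beside 4 and 6 of all 20 genes, with medians of -0.71 and -0.96. For CDS footprints 4 and 5 of the 6 were called lower and 0 and 1 higher, beside 11 and 14 of 20 genes lower, with medians of -1.12 and -1.79. Between genotypes, 6, 4 and 5 of the 6 were called lower in CDS footprints in TrspA37G at 0, 0.1 and 2.0 ppm, beside 1, 1 and 2 of the 4 housekeeping genes and 12, 8 and 10 of all 20 genes. Gpx4 was not among those called at any diet.

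The genes most like Gpx4 were ranked by the root mean square difference of their log2 ratios to the WT liver at 0.1 ppm over the other 5 livers. For mRNA they were Sephs2, the enzyme that makes the selenium donor, at 0.29, Selo, a mitochondrial AMP-transferring enzyme, at 0.35, and Seli, a phospholipid-synthesising enzyme, at 0.37, among 19 genes. For CDS footprints they were Selm at 0.24 and Sepn1 at 0.27, both proteins of the endoplasmic reticulum with few reads here, and Seli at 0.30. For readthrough Sephs2 at 0.23 and Sep15 at 0.23 came first among 9 genes. Sephs2 thus stands first in both mRNA and readthrough, in ratios to the WT liver at 0.1 ppm and not in levels, and its readthrough without selenium had log2 ratios of -1.39 in WT and -1.40 in TrspA37G.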

How the data were processed

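Reads were mapped with Bowtie to mouse build mm9, per the submitters' processing notes. Software versions, read filters and the treatment of multiply mapped reads were not given in the sources used here. RPKM (mRNA) and RPFKM (footprints, same unit) values of 23 selenoprotein genes were deposited by the authors, who divided reads by region length and library total, per the file headers. Their 4 tables, per the same headers, cover the whole mRNA, the CDS window, and the CDS 5' and 3' of the UGA-Sec codon. In 3 tables the header of column 8 gives mRNA as its assay but RPFKM as its unit, and it was read as footprints. Because each library has 1 total, a change in a few abundant RNAs moves the RPKM of all others.

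Whole reads were recovered from the deposited RPKM values. With a CDS window 57 nt shorter than the annotated CDS (GENCODE M21), 95.3% of 258 CDS values were whole within 0.001 reads, against at most 11.2% at 8 other lengths tried. For the 5' and 3' windows, a length set by the codon of the UGA was tried first. It gave whole reads for every gene with values in the window except Txnrd3. The lengths of the mRNA and of Txnrd3 were searched until reads were whole, so their fit is no test. Mapped reads numbered 17763406 to 30296837 for footprints and 10669213 to 16709701 for mRNA.

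Genes entered a comparison with at least 10 reads over its 2 libraries and 1 in each. Intervals are exact Poisson for levels and exact (Clopper-Pearson) for shares and for ratios of 2 counts. Efficiency and readthrough compared between libraries had an exact conditional odds ratio up to 2000 reads and a log-normal form above. Differences in response between genotypes, and readthrough divided by the mRNA ratio, had log-normal intervals. All these intervals cover counting error only and hold no variation between mice. Reads lack molecular identifiers and so are not independent molecules. The additive fit used limma 3.58.1 in R 4.3.3 on log2 values without a pseudocount, with p-values adjusted by Benjamini-Hochberg over the genes tested. Its error term is the departure from additive effects of genotype and diet, not the spread between mice. Alternatives were median-ratio scaling, a pseudocount of 1, no read floor, mRNA over the CDS window, the windows without the stretch at the UGA, division by the mRNA ratio and each diet left out. Named genes were Gpx4, the other glutathione peroxidases, its neighbours in level in WT at 0.1 ppm, the 3 genes most like it and 3 lists. The gene, the lists and the rules were chosen with earlier results of these data known. Figures were drawn with matplotlib 3.10.9.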

Additional observations from a re-analysis of the deposited data

Results flagged for a closer look

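Several differences of Gpx4 point in opposite directions in groups under the same contrast, each with a counting interval that excludes 0. With 1 library in each group these differences between groups were not tested beyond counting error, and variation between mice is not in the intervals. The 5' footprints had a log2 ratio of 0.15 for 0 against 0.1 ppm selenium in WT and -0.44 in TrspA37G. For TrspA37G against WT, the 5' footprints had -0.44 without selenium, 0.15 at 0.1 ppm and 0.30 at 2.0 ppm. The 3' footprints had -0.94, -0.18 and 0.28 in the same order. CDS footprints had -0.52 without selenium and 0.32 at 2.0 ppm, and mRNA had -0.15 and 0.41. All of these are differences in level between libraries and move with the scaling, and readthrough, which does not, had no such pair.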

How the results depend on the processing

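The 65 results, most of them on Gpx4, had 138 alternative values. Of these, 107 kept their direction and their side of the threshold, 19 reversed, 9 moved past the threshold and 3 fell short of it. The 107 include counts of genes called, which have no direction, and all values without the read floor, none of which differed from the main ones. Most values outside the 107 come from scaling each library to the median selenoprotein, which shifts every level of a library alike. The 5' and 3' footprints were scaled here by the median of CDS footprints, not by that of their own window. Without selenium (0 against 0.1 ppm, WT and TrspA37G), the log2 ratios then became 0.59 and 0.60 for mRNA, 0.62 and 0.39 for CDS footprints, 0.88 and 0.64 for 5' footprints and 0.038 and -0.55 for efficiency, while 3' footprints became -0.34 and -0.75. For 2.0 against 0.1 ppm, mRNA became -0.078 and CDS footprints -0.060 in WT, and efficiency -0.0010 in TrspA37G. For TrspA37G against WT at 0 ppm, mRNA became 0.40, CDS footprints 0.45, 5' footprints 0.52 and 3' footprints 0.023. At 0.1 ppm 5' footprints became 0.62 and 3' footprints 0.30, and at 2.0 ppm mRNA became 0.84, CDS footprints 0.98, 5' footprints 0.97, 3' footprints 0.95 and efficiency 0.38. The genotype difference in the response to deprivation became 0.010 for mRNA, -0.23 for CDS footprints and -0.59 for efficiency. With mRNA over the CDS window, efficiency of TrspA37G against WT at 0.1 ppm became -0.047. Divided by the mRNA ratio, readthrough became -0.019 for 2.0 against 0.1 ppm in TrspA37G and -0.0059 and 0.11 for TrspA37G against WT at 0.1 and 2.0 ppm. In the additive fit the genotype effect became -0.053 for mRNA without the 2.0 ppm diet and 0.19 for CDS footprints without the 0 ppm diet. The readthrough effect of deprivation, -1.31, is the mean over both genotypes, so leaving out the 2.0 ppm diet cannot move it. Its adjusted p in limma became 0.0519 without that diet. The cause of these changes was not tested beyond the construction of the scaling. Readthrough without selenium was still called lower in both genotypes when divided by the mRNA ratio of the windows. That was the only alternative run on it outside the additive fit. No paired analysis was possible because each group has 1 library and the labels give no replicate numbers. Depth limits the 18 nt stretch at the UGA, which rests on 20 to 99 footprints, and Gpx3, more than the other Gpx4 values.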
